A study of Mus musculus with 80 samples.

Results

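The METTL3 complementation assay in female mouse embryonic stem (ES) cells asked whether a catalytically inactive METTL3 can stand in for the degraded endogenous protein during X chromosome silencing. The 8 libraries described here, of 80 in the series, are those of the 2 XX transgene clones grown with doxycycline (Dox), namely D395A_1F and WT_P2B3, each as Dox alone and as dTAG and Dox in experiments Rep1 and Rep2. They were chosen by cell line and treatment as the labels give them. Both clones descend from the H5 clone, whose METTL3 carries a C-terminal FKBP12 F36V degron tag, and in both a TetOn promoter drives Xist on the Cast X chromosome of cells from a cross of Cast and 129S mice. D395A_1F expresses GFP-METTL3 with the D395A change from the Rosa26 locus, and WT_P2B3 expresses wild-type GFP-METTL3 from that locus. Dox was given for 24 h, and the treated libraries had the degrader dTAG-13 (dTAG) for 2 h beforehand and throughout, so a loss of tagged METTL3 leaves only the transgene product. Each transgene is represented by a single XX clone, both experiments of a group are that clone, and the p-values therefore measure the spread between these libraries rather than between independently derived clones.

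METTL3 is the catalytic subunit of the complex that writes N6-methyladenosine (m6A) on nascent RNA, and it works as a heterodimer with METTL14, which helps to bind the substrate RNA. The aspartate changed in D395A lies in the DPPW motif of the METTL3 active site, and an alanine at this place removes methyltransferase activity. Xist is a long non-coding RNA rich in m6A that coats the chromosome it is transcribed from and recruits silencing factors such as SPEN and Polycomb complexes. Chromatin-associated RNA sequencing (ChrRNA-seq) measures RNA held in the chromatin fraction, which is enriched in nascent transcripts, and reads over strain variants tell the Xist-coated Cast X (Xi) from the active 129S X (Xa).

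The codon that distinguishes the transgenes is shown in its genomic context, because the catalytic residue is the intended difference between the clones. The window is from the RefSeq annotation of GRCm38.p6 at chr14:52297575-52297601 on the minus strand, in coding exon 6 of 11 of Mettl3. It encodes residues 392 to 400 of the 580-residue protein, and the capitals mark the aspartate codon, at 52297590 to 52297592, that D395A replaces with one for alanine. The sequence of the transgene itself is not given here.
Mettl3 residues 392 to 400: gtgatggctGACccaccttgggatatt

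The 8 libraries held 8.58 to 31.5 M reads (megareads), recovered from the deposited CPM, read counts scaled to library size, and the shallowest was WT_P2B3 with Dox in Rep2. Tests used the 13364 genes that averaged 1 CPM or more over the 16 XX transgene libraries, with and without Dox. Changes are differences of log2(CPM + 1) between dTAG and Dox and Dox alone within a Rep, fitted with limma with the Rep of each clone as a block, and a call is an adjusted p under 0.05. The embryonic stem cell markers Esrrb and Zfp42 lay at 526 to 865 and 311 to 501 CPM, whereas Sox2 was listed at 0 in all 8 libraries. The summed level of the 8 defining fibroblast markers, which would come from feeder cells, was 2.06 to 5.24 CPM. Rep2 of WT_P2B3 stood apart for a few genes. Among them Filip1l measured 4667 CPM with Dox and 122 CPM with dTAG and Dox, against 80.5 and 15.98 CPM in Rep1 of that clone.

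The transgene clones answered dTAG differently. In D395A_1F, 2652 genes (19.8% of those tested) were higher and 1262 (9.44%) were lower with dTAG and Dox than with Dox alone, and 205 of the rises and 44 of the falls exceeded 2-fold. In WT_P2B3 no gene passed the limma test in either direction (0.0% higher and 0.0% lower), with 950 genes at an unadjusted p under 0.05, and edgeR on the recovered reads also called 0, with 623 genes at an unadjusted p under 0.05. The change itself differed between the clones for 1613 genes, of which 1048 (7.84%) had the higher change in D395A_1F and 565 (4.23%) the lower. The standard deviation over genes of the change was 0.346 and 0.393 in the Rep pairs of D395A_1F, and 0.147 and 0.268 in those of WT_P2B3.

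The size of these counts depends on the pairing by Rep and on the scaling. Without the replicate block 426 genes were called in D395A_1F, 328 higher and 98 lower, and 2 for the difference. Leaving out Rep1 of D395A_1F gave 1897 calls in that clone and leaving out its Rep2 gave 1199, with 858 and 384 for the difference. Leaving out Rep1 of WT_P2B3 gave 193 calls in that clone, and leaving out its Rep2 gave 679 for the difference. Median-ratio scaling turned the split of calls in D395A_1F to 1992 higher and 2196 lower and that of the difference to 902 higher and 901 lower, and edgeR gave 2309 and 1911, and 986 and 741. The majority of rises over falls was thus absent under median-ratio scaling and smaller with edgeR, whereas no called gene named here changed sign under median-ratio scaling.

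**Figure D1:**
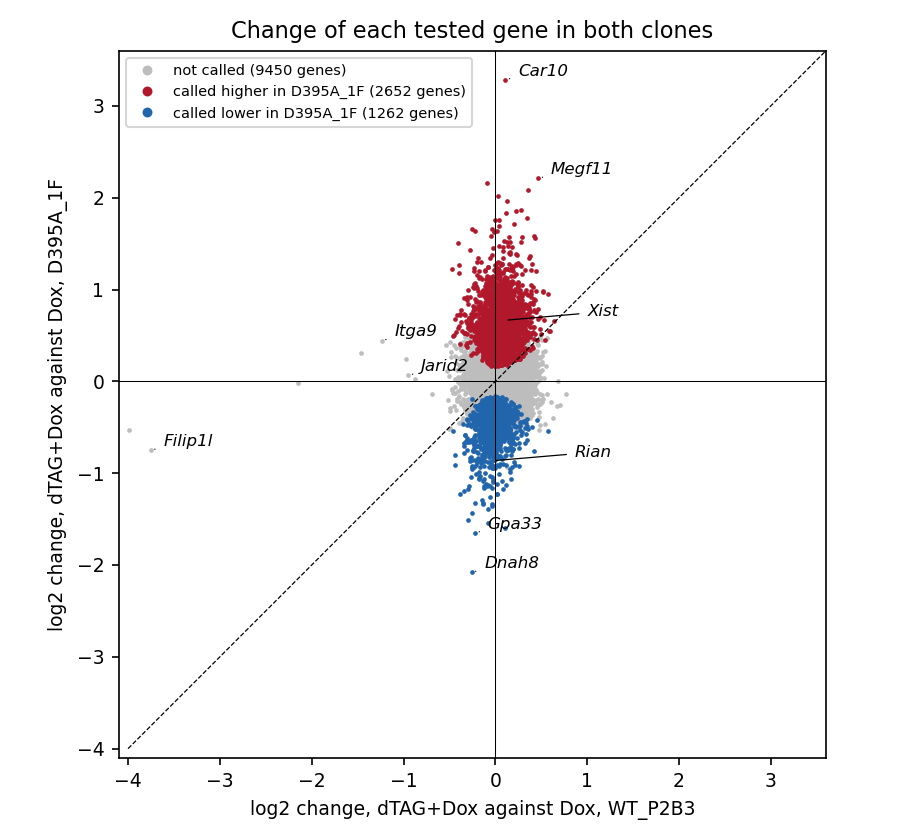
Log2 change with dTAG of each of the 13364 tested genes in WT_P2B3 (x axis) and D395A_1F (y axis); red and blue points were called higher or lower in D395A_1F and the dashed line marks equal change. The called genes spread along the D395A_1F axis around no change in WT_P2B3, and Filip1l, lower with dTAG in both pairs of WT_P2B3, stands to the left with Itga9 and Jarid2, whose place comes from Rep2 of that clone.

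Xist RNA rose with dTAG in D395A_1F. With Dox alone the D395A_1F libraries measured 5729 and 2786 CPM in Rep1 and Rep2, and with dTAG and Dox 8948 and 4476 CPM. In WT_P2B3 the levels were 2531 and 5479 CPM with Dox and 3012 and 5241 CPM with dTAG and Dox. Rep pairs moved together in D395A_1F, by 0.64 and 0.68 on the log2 scale, but the levels of the 2 experiments were so far apart that the treated and untreated libraries overlapped in both clones.

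The paired change of Xist in D395A_1F was 1.58-fold (95% interval 1.37 to 1.83, adjusted p = 0.000152, limma). In WT_P2B3 it was 1.07-fold (0.921 to 1.24, adjusted p = 0.824), from pair changes of 0.25 and -0.06. The changes differed between clones by 1.48-fold (1.21 to 1.83, adjusted p = 0.0155). That difference was lost without Rep2 of WT_P2B3 (log2 difference 0.41, adjusted p = 0.149), without Rep2 of D395A_1F (0.55, adjusted p = 0.0620) and without the replicate block (0.57, adjusted p = 0.999), and the rise in D395A_1F was lost without the replicate block (adjusted p = 0.682). An exact two-sided permutation test of the pair changes gave p = 0.333, the smallest that 2 pairs against 2 can give. In tables normalised separately, Xist changed by 1.26 and 0.78 in the pairs of D395A_9F, a D395A clone described further on, by -0.04 and -0.12 in those of the wild-type clone WT_1A, and by 1.18 in the parental H5 clone. Other clones with tagged METTL3 and no transgene varied. In C3, Xist took 89272 of 21.3 M reads with Dox and 104636 of 23.0 M with dTAG and Dox. The same counts were 39796 of 19.5 M and 109346 of 24.3 M in G4, and 42813 of 20.1 M and 101518 of 21.3 M in H1. In bulk libraries, more cells with Xist and more Xist RNA per cell cannot be told apart.

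Mettl3 itself did not pass the test, and its reads come from the tagged endogenous gene and may include those of the transgene, which cannot be told apart here. It measured 42.3 and 45.9 CPM with Dox and 42.3 and 55.9 CPM with dTAG and Dox in D395A_1F, and 48.3 and 33.4 CPM without and 44.2 and 37.4 CPM with dTAG in WT_P2B3. Treated and untreated libraries overlapped in both clones. The log2 changes were 0.14 (95% interval -0.06 to 0.34, adjusted p = 0.282) and 0.02 (-0.18 to 0.21, adjusted p = 0.978). dTAG acts on the protein, so the RNA is no check of its loss.

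**Figure D2:**
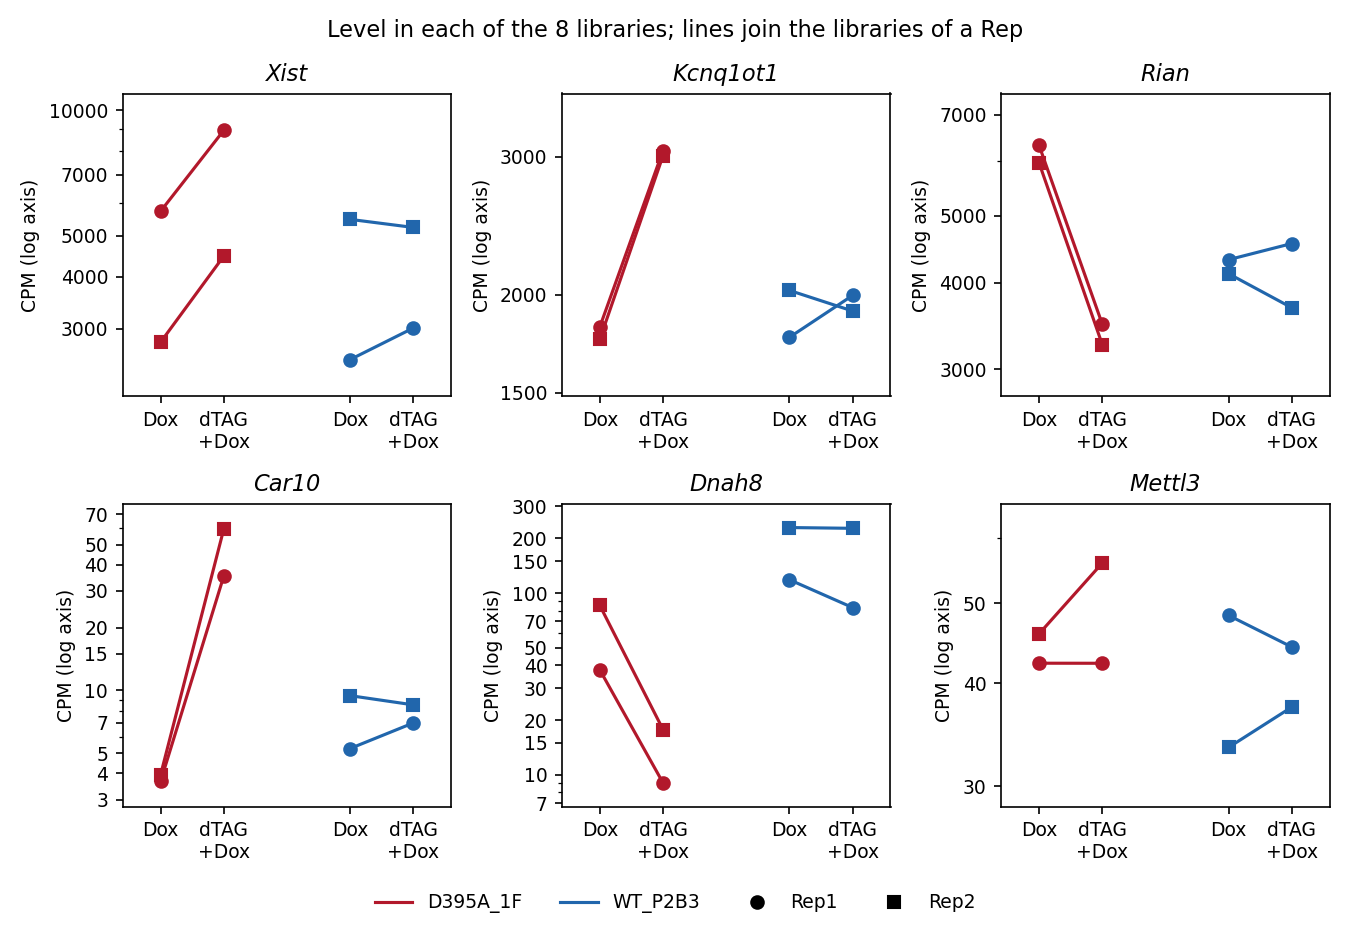
Level (CPM, log axis) of Xist, Kcnq1ot1, Rian, Car10, Dnah8 and Mettl3 in each of the 8 libraries; lines join the Dox and the dTAG and Dox library of one Rep, red for D395A_1F and blue for WT_P2B3. The D395A_1F lines of Xist, Kcnq1ot1 and Car10 climb in both experiments and those of Rian and Dnah8 descend.

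The autosomal genes with the largest changes in D395A_1F were led by Car10 among the rises and by Dnah8 among the falls, and the 10 largest called changes in each direction are described. Car10, a carbonic anhydrase-related protein without enzyme activity, rose most. It measured 3.67 and 3.94 CPM with Dox and 35.3 and 59.3 CPM with dTAG and Dox in D395A_1F, and 5.27 and 9.44 CPM without and 6.99 and 8.53 CPM with dTAG in WT_P2B3. Both treated D395A_1F libraries lay above the other 6. The log2 change was 3.28 ± 0.209 (SE, n = 2 pairs, adjusted p = 8.47e-08, limma), 3.18 more than in WT_P2B3 (adjusted p = 2.97e-05). This SE and those given below come from the fit over 16 libraries, not from the spread of the 2 pairs (2.96 and 3.61 for Car10).

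Megf11, a transmembrane protein with EGF repeats that spaces retinal neurons, rose from 34.6 and 34.9 CPM to 179 and 152 CPM in D395A_1F, and in WT_P2B3 measured 42.0 and 23.2 with Dox and 42.0 and 45.2 CPM with dTAG and Dox. Cadps2, which primes dense-core vesicles for secretion, went from 71.1 and 38.6 CPM to 202 and 185 CPM, whereas WT_P2B3 measured 44.2 and 98.2 with Dox and 61.0 and 106 CPM with dTAG and Dox. The treated D395A_1F libraries were again the highest of the 8 for both genes. Their log2 changes in D395A_1F were 2.21 and 1.86, and exceeded those of WT_P2B3 by 1.75 and 1.58. The ubiquitin ligase genes Pdzrn4 and Sh3rf2, Itpr2 (an inositol trisphosphate receptor), Ptchd4 (a patched-domain protein), the procollagen protease Adamts3, the ferritin receptor Scara5 and the kinase Lrrk1 completed the rises, with log2 changes of 1.72 to 2.08. Pdzrn4 measured 8.76 and 7.32 CPM with Dox and 37.3 and 36.9 CPM with dTAG and Dox in D395A_1F, but its level in Rep2 of WT_P2B3 was already 29.5 CPM with Dox and 44.0 CPM with dTAG and Dox.

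The largest fall was that of Dnah8, an axonemal dynein heavy chain, from 37.8 and 85.5 CPM to 9.04 and 17.8 CPM in D395A_1F. In WT_P2B3 it measured 119 and 229.5 CPM with Dox and 83.3 and 227 CPM with dTAG and Dox. The treated D395A_1F libraries were the lowest of the 8, although WT_P2B3 held more Dnah8 RNA in every library than D395A_1F with Dox, except for 83.3 CPM in its treated Rep1 against 85.5 CPM. The log2 change was -2.08 ± 0.123 (SE, n = 2 pairs, adjusted p = 5.14e-08, limma) and differed from that of WT_P2B3 by -1.82 (adjusted p = 3.7e-05). Gpa33, a cell surface antigen of intestinal epithelium, fell from 34.6 and 38.1 CPM to 9.25 and 12.8 CPM, whereas WT_P2B3 measured 42.1 and 32.4 with Dox and 36.1 and 27.6 CPM with dTAG and Dox. Ebf1, a transcription factor of B lymphocyte and mesenchymal development, fell from 142 and 294 CPM to 67.1 and 92.5 CPM, whereas WT_P2B3 measured 339 and 398 with Dox and 338 and 381 CPM with dTAG and Dox.

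For Gpa33 and Ebf1 the treated D395A_1F libraries lay below all the others. The other named falls were galectin-3 (Lgals3, log2 change -1.60), Cnpy1 (-1.54), the muscle chloride channel Clcn1 (-1.51), the neuregulin receptor Erbb4 (-1.44), the protease inhibitor Spink3 (-1.39), Irak3, an inhibitor of Toll-like receptor signalling (-1.34), and the adhesion molecule Cadm2 (-1.33). For all 20 named rises and falls the difference between clones also passed the test.

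Ranked by the difference between clones, the list was largely made of these genes, with Egr1, Dok6, Itga9, Tll1, Dync1i1 and Vim entering. Egr1, an immediate early transcription factor, measured 3.04 and 1.84 CPM with Dox and 7.24 and 12.6 CPM with dTAG and Dox in D395A_1F, and 3.03 and 12.8 CPM without and 3.85 and 7.44 CPM with dTAG in WT_P2B3. Its difference of 1.86 (adjusted p = 0.0317) drew both on the rise in D395A_1F and on the lower treated value in Rep2 of WT_P2B3, and did not pass without Rep2 of either clone (adjusted p = 0.271 without that of WT_P2B3 and 0.0706 without that of D395A_1F). Itga9, an integrin subunit, did not pass in D395A_1F (log2 change 0.44, adjusted p = 0.379) and its difference of 1.68 rested on Rep2 of WT_P2B3, where it went from 718 to 128 CPM, and was 0.44 without that pair (adjusted p = 0.445). It also did not pass without either Rep of D395A_1F (adjusted p = 0.0925 and 0.134). Vim, the intermediate filament vimentin, had a log2 change of -1.22 in D395A_1F and a difference of -1.24.

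Most of these genes moved the same way with dTAG where Xist was not induced, and in another clone with the D395A transgene. Without Dox, 98.7% of the autosomal genes called higher in D395A_1F were higher in both dTAG pairs of that clone, against 56.6% of all autosomal genes, and 94.2% of those called lower were lower in both pairs, against 24.5%. In D395A_9F, a D395A clone that had lost the 129S X (XiO), 91.2% of the genes called higher were higher in both pairs with Dox, against 56.0% of all, and 77.4% of those called lower were lower, against 21.1%. In the 4 METTL3 degron clones without a transgene, H5 among them, the shares moving the same way in every clone were 61.8% against 30.6% and 39.6% against 7.31%. For WT_P2B3 with Dox they were 35.4% against 30.2% and 29.7% against 16.5%. These shares are descriptions, since the libraries of the other clones were normalised in separate tables and genes are not independent. The libraries of D395A_1F without Dox and those of WT_P2B3 were also in the fit that made the calls. Their shares are therefore not independent of which genes were called.

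All 10 named rises and all 10 named falls kept their direction in both pairs of D395A_1F without Dox and in both pairs of D395A_9F. Car10 changed by 3.45 in log2 without Dox and by 3.47 in D395A_9F, and Dnah8 by -2.11 and -1.78. Without Dox in WT_P2B3 their mean changes were 0.25 and -0.25. Egr1, named for the difference, changed by 0.68 and -1.42 in the pairs of D395A_1F without Dox.

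**Figure D3:**
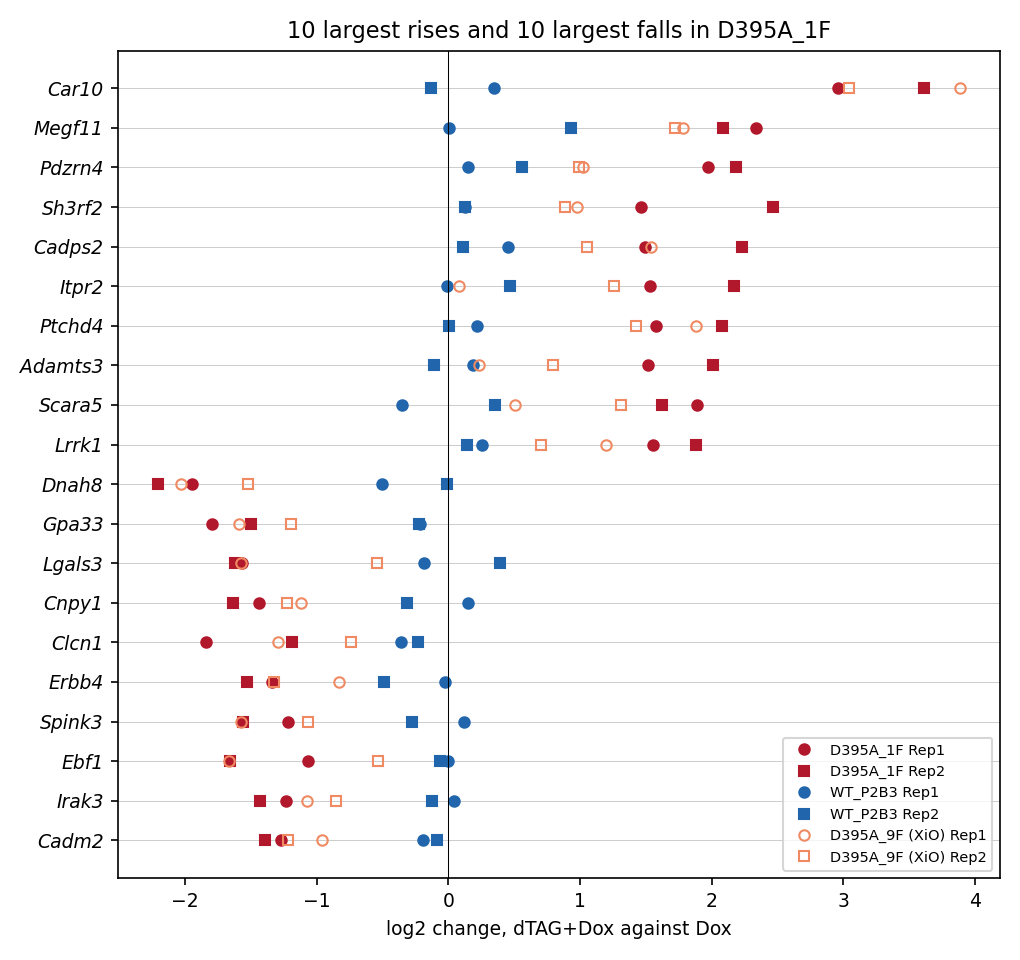
Log2 change with dTAG of the 10 largest rises and 10 largest falls of D395A_1F in each Rep pair of D395A_1F (red), WT_P2B3 (blue) and the XiO clone D395A_9F (open orange). The D395A_1F and D395A_9F points fall on the same side of 0 for all 20 genes, and the WT_P2B3 points lie near 0 except in single pairs.

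Genes of the m6A pathway included 4 calls in D395A_1F, 2 in each direction. Of 10 writer and eraser genes tested, 1 was called, lower, and of 10 reader genes 2 were higher and 1 lower, against 19.8% and 9.44% of all genes. Wtap, which anchors the METTL3-METTL14 heterodimer in nuclear speckles, measured 214 and 255 CPM with Dox and 155 and 172 CPM with dTAG and Dox in D395A_1F, and 191 and 224 CPM without and 186 and 222 CPM with dTAG in WT_P2B3. Its treated D395A_1F libraries were the lowest of the 8, with a log2 change of -0.51 ± 0.0616 (SE, n = 2 pairs, adjusted p = 2.03e-05, limma) and a difference of -0.49 from WT_P2B3 (adjusted p = 0.00228). The readers Ythdf2, which recruits the deadenylase complex (0.37), and Ythdc2, an RNA helicase (0.25), were higher, and Igf2bp3, an mRNA-stabilising reader (-0.39), was lower. Under median-ratio scaling the call of Ythdc2 was lost (adjusted p = 0.158). It was also lost without either Rep of D395A_1F (0.28 without Rep1 and 0.23 without Rep2). The calls of Ythdf2 (0.34) and Igf2bp3 (-0.33) were lost without Rep2 and without Rep1 of D395A_1F, respectively. Without its Rep2, the difference of Wtap (-0.44) did not pass either.

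Subunits of the nuclear exosome and of its adaptors NEXT and PAXT, which degrade nuclear RNA, showed 1 call (5.26% higher and 0.0% lower, beside 19.8% and 9.44% of all genes) among 19 genes tested, Exosc6 at 0.50, lost under median-ratio scaling (adjusted p = 0.0536). Of 18 Xist cofactor and Polycomb genes 5 were higher (27.8%) and 2 lower (11.1%) in D395A_1F. Ezh2, the methyltransferase of Polycomb complex PRC2, measured 288 and 269 CPM with Dox and 224 and 205 CPM with dTAG and Dox, a log2 change of -0.37, while the PRC1 genes Pcgf5 (0.48), Pcgf3 (0.34) and Yaf2 (0.40) were higher. The calls of Ezh2 (-0.36) and Yaf2 (0.33) were lost without Rep2 of D395A_1F, and that of Pcgf3 (0.31) without its Rep1. Those of Hdac3, Smchd1 and Eed, also in this list, were lost without either Rep. Of 16 genes for SR splicing factors and their CLK kinases none was higher and 8 (50.0%) were lower in D395A_1F, where 9.44% of all genes were lower, with a median log2 change of -0.18 against 0.06 over all genes, Srsf5 (-0.42), Srsf2 (-0.34) and Clk1 (-0.27) among them. Only 1 of the 16 passed the test of the difference, so the list was not shown to differ from WT_P2B3 in its other members. Of the 8 calls in D395A_1F, that of Srsf5 was kept with either Rep of that clone left out. The others were lost without at least 1 of its Reps, such as Srsf2 without Rep2 (-0.28) and Clk1 without either (-0.27).

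Long non-coding RNAs of imprinted clusters went opposite ways. Of 12 nuclear and imprinted lncRNAs 2 were called higher (16.7%) and 4 lower (33.3%) in D395A_1F, against 19.8% and 9.44% of all genes, and the same counts passed for the difference, against 7.84% and 4.23%. Kcnq1ot1, the antisense RNA that silences genes of the Kcnq1 cluster, measured 1821 and 1755 CPM with Dox and 3054 and 3009 CPM with dTAG and Dox in D395A_1F, and 1766 and 2026 CPM without and 1997 and 1908 CPM with dTAG in WT_P2B3. Both treated D395A_1F libraries stood above the other 6, with a log2 change of 0.76 and a difference of 0.72 (adjusted p = 0.00132). Airn, the corresponding RNA of the Igf2r cluster, rose from 102 and 71.1 CPM to 161 and 142 CPM, by 0.82, whereas WT_P2B3 measured 99.1 and 130.2 with Dox and 90.5 and 159 CPM with dTAG and Dox.

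Rian, a snoRNA-bearing transcript of the Dlk1-Dio3 domain, fell from 6325 and 5967 CPM to 3487 and 3257 CPM in D395A_1F, and in WT_P2B3 measured 4322 and 4124 with Dox and 4561 and 3682 CPM with dTAG and Dox. Meg3, transcribed from the same domain, fell from 2868 and 2332 CPM to 1607 and 1264 CPM, whereas WT_P2B3 measured 1856 and 1865 with Dox and 1702 and 2038 CPM with dTAG and Dox. The treated D395A_1F libraries were the lowest of the 8 for both. Mirg, further along the domain, changed by -0.75, Rian by -0.87 and Meg3 by -0.86, and the X-linked Firre, which anchors the X at the nucleolus, by -0.82. Malat1, the speckle lncRNA, did not pass (-0.14, adjusted p = 0.12). Rian, Meg3 and Kcnq1ot1 moved the same way without Dox in D395A_1F (-0.89, -1.03 and 0.78) and in D395A_9F (-0.67, -0.75 and 0.33). Among 9 tested snoRNA host genes 2 (22.2%, against 9.44% of all) were lower, Snhg5 at -0.48. The calls of Snhg5 (-0.34) and Snhg8 (-0.23) were lost without Rep1 of D395A_1F.

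Naive pluripotency genes fell in D395A_1F in part. Of 16 tested, none was called higher and 8 (50.0%) lower, against 19.8% and 9.44% of all genes, with a median log2 change of -0.30, and 6 were lower for the difference, against 4.23% of all genes. Klf5, a transcription factor of ES cell self-renewal, measured 101 and 111 CPM with Dox and 67.0 and 67.5 CPM with dTAG and Dox in D395A_1F, and 136 and 135 CPM without and 137 and 118 CPM with dTAG in WT_P2B3. Its treated D395A_1F libraries were the lowest of the 8. The AKT coactivator Tcl1 (-0.76), Dppa5a (-0.72) and the nuclear receptor genes Nr0b1 (-0.65) and Nr5a2 (-0.57) fell likewise, Esrrb by -0.33, and Nanog did not pass (0.12, adjusted p = 0.408). Nr0b1 changed by -0.34 without Rep1 of D395A_1F, where its call was lost, and by -0.96 without Rep2. The calls of Dppa5a, Esrrb, Tbx3 and Zfp42 were also lost without at least 1 Rep of D395A_1F. Pou5f1 had a log2 change of -0.21 in D395A_1F that did not pass, and a difference of -0.55 that did (adjusted p = 0.0193), but not without Rep2 of WT_P2B3 (-0.36, adjusted p = 0.180) or without either Rep of D395A_1F (adjusted p = 0.0932 and 0.135). Of the 6 differences, those of Pou5f1, Esrrb, Tbx3, Tcl1 and Nr5a2 did not pass without Rep2 of WT_P2B3 (adjusted p = 0.148 to 0.234), and that of Klf5 did not without Rep2 of D395A_1F (adjusted p = 0.0961) or Rep1 of WT_P2B3 (adjusted p = 0.0536).

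The summed level of the 6 ES cell markers was 1280 and 1405 CPM with Dox and 1076 and 1131 CPM with dTAG and Dox in D395A_1F, and 1009 to 1482 CPM in WT_P2B3. The 20-gene fibroblast list summed to 47.2 and 41.4 CPM with Dox and 62.2 and 63.8 CPM with dTAG and Dox in D395A_1F, and to 62.9 to 69.5 CPM in WT_P2B3. Of that list 7 genes passed the level filter and 2 were called higher in D395A_1F, the lysyl oxidase Loxl1 (0.78) and the collagen Col5a1 (0.69), while Lum, Dcn and Postn were at or under 0.583 CPM in all 8 libraries. The call of Loxl1 (0.67) was lost without Rep2 of D395A_1F. The part of cell composition in the changes of these lists was not tested. Of 9 formative and lineage genes 3 (33.3%) were higher and 2 (22.2%) lower, against 19.8% and 9.44% of all genes, with the mesodermal factor T at -1.01, Fgf5 at 0.63 and the de novo methyltransferase Dnmt3a at 0.50. The calls of Fgf5, Eomes and Pax6 were lost without either Rep of D395A_1F. Their changes were 0.52, 0.39 and -0.72 without Rep1 and 0.74, 0.67 and -0.48 without Rep2. None of the two-cell-like state genes passed the level filter.

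Genes of stress programmes were called at shares of 18.2 to 21.1% higher and 0.0 to 6.25% lower in D395A_1F, against 19.8% and 9.44% of all genes. Of 19 p53 target genes 4 were higher and 1 lower in D395A_1F (Phlda3, an AKT inhibitor, at 0.54 and Btg2, an antiproliferative factor, at 0.51). Of 16 integrated stress response genes 3 were higher and 1 lower, among them the transcription factors Atf3 (0.88) and Ddit3 (-0.65) and the cystine transporter Slc7a11 (0.65). Each of these calls was lost without one Rep, as Atf3 (0.25, adjusted p = 0.665) and Slc7a11 (0.26, adjusted p = 0.595) did not pass without Rep2 of D395A_1F, nor Ddit3 without its Rep1 (-0.40, adjusted p = 0.223). Phlda3 (adjusted p = 0.559) and Btg2 (adjusted p = 0.450) did not pass without Rep2. Of 11 immediate early genes 2 were higher, Egr1 (1.64) and Jun (0.92), the latter not without Rep1 (adjusted p = 0.108). Of 17 genes for factors that silence retroelements, a separate list, 5 (29.4%) were higher and 2 (11.8%) lower. Setdb1, a histone H3 lysine 9 methyltransferase, changed by 0.49 and its partner gene Atf7ip by -0.66. The calls of Pphln1 (0.21) and Suv39h1 (0.27) were lost without Rep2 of D395A_1F, and that of Cbx5 (0.10) without its Rep1. That of Atrx was lost without either (-0.27 without Rep1 and -0.31 without Rep2).

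Genes with long transcribed spans were called more often in D395A_1F. Among genes spanning under 10 kb 9.20% were higher and 6.95% lower, and among those over 100 kb 32.7% and 15.7%. Long genes were also measured at higher CPM (median 83.5 against 6.54 CPM), so span and precision moved together and their parts were not tested. The short-span genes under 3 kb took 0.661 to 1.11% of reads in the 8 libraries. In D395A_1F the share was 1.11 and 0.944% with Dox and 0.939 and 0.846% with dTAG and Dox.

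A larger share of X-linked than of autosomal genes was called lower in D395A_1F, Xist aside. Of 484 tested, 78 (16.1%) were higher and 112 (23.1%) lower, with a median log2 change of -0.06, against 20.0% and 8.93% of 12878 autosomal genes with a median of 0.06. In WT_P2B3, where none was called, the X-linked median was -0.05 and the autosomal 0.04, so the X-linked median lay below the autosomal in both clones. For the difference 46 X-linked genes (9.50%) were higher and 37 (7.64%) lower, against 7.77% and 4.10% of autosomal genes, with a median of -0.02 against 0.02. CPM here joins both alleles. Within the X inactivation centre, the region around Xist, 4 of 8 genes were higher in D395A_1F and 2 lower, against 16.1% and 23.1% of the X-linked genes. Jpx, a lncRNA gene next to Xist, measured 3.84 and 3.58 CPM with Dox and 10.9 and 11.7 CPM with dTAG and Dox, and 4.56 and 7.69 CPM without and 4.94 and 9.17 CPM with dTAG in WT_P2B3.

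Both treated D395A_1F libraries lay above the other 6 for Jpx, with a log2 change of 1.38 and a difference of 1.22 (adjusted p = 0.00275). Rlim, which encodes the ubiquitin ligase that activates Xist by degrading REX1, went from 84.9 and 112 CPM to 132 and 184 CPM in D395A_1F, whereas WT_P2B3 measured 156 and 190.2 with Dox and 157 and 179.9 CPM with dTAG and Dox. Its rise of 0.67 left it within or below the range of WT_P2B3, whose 4 libraries all lay above both D395A_1F libraries with Dox alone. In the same region Chic1 (-0.30) and Tsix, the antisense of Xist (-0.21), were lower without passing for the difference (adjusted p = 0.203 and 0.312). Against those shares, 2 of 9 known escape genes were higher (22.2%) and 3 lower (33.3%), and 3 of 38 X-linked housekeeping and disease genes were higher (7.89%) and 13 lower (34.2%), such as the splicing factor Rbmx (-0.62), the cohesin subunit Smc1a (-0.48) and the ubiquitin ligase Huwe1 (-0.46). Chosen after their values were seen, the largest X-linked rise besides these was Pof1b (1.66), an actin-binding protein gene, and the largest fall Ap1s2 (-1.20), an adaptor subunit of vesicle transport.

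The median allelic ratio of X-linked genes, Xi/(Xi + Xa), was lower with dTAG in each of the 4 Rep pairs, and by more in both pairs of D395A_1F than in those of WT_P2B3. Over 409 genes without Xist the library medians were 0.178 and 0.196 with Dox and 0.123 and 0.115 with dTAG and Dox in D395A_1F. In WT_P2B3 they were 0.277 and 0.237 with Dox and 0.248 and 0.220 with dTAG and Dox. The treated D395A_1F libraries lay below their Dox libraries without overlap, whereas those of WT_P2B3 overlapped between experiments, and the D395A_1F medians were the lower with Dox alone. Without Dox the medians were 0.470 to 0.486 in both clones, and the median change per gene with dTAG was -0.0043 to 0.0011 in the 4 pairs.

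The median change per gene was -0.0453 and -0.0640 in the Rep pairs of D395A_1F and -0.0188 and -0.0114 in those of WT_P2B3. In D395A_1F 342 and 359 of the 409 genes were lower, 314 in both pairs, and in WT_P2B3 306 and 248 were, 192 in both. Every pair of D395A_1F fell by more than every pair of WT_P2B3, which with 2 pairs each gives an exact two-sided permutation p = 0.333, the smallest possible. From the fit, the median change was -0.0554 in D395A_1F, -0.0159 in WT_P2B3 and -0.0365 for the difference. That difference stayed between -0.0486 and -0.0265 with any single pair left out.

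**Figure D4:**
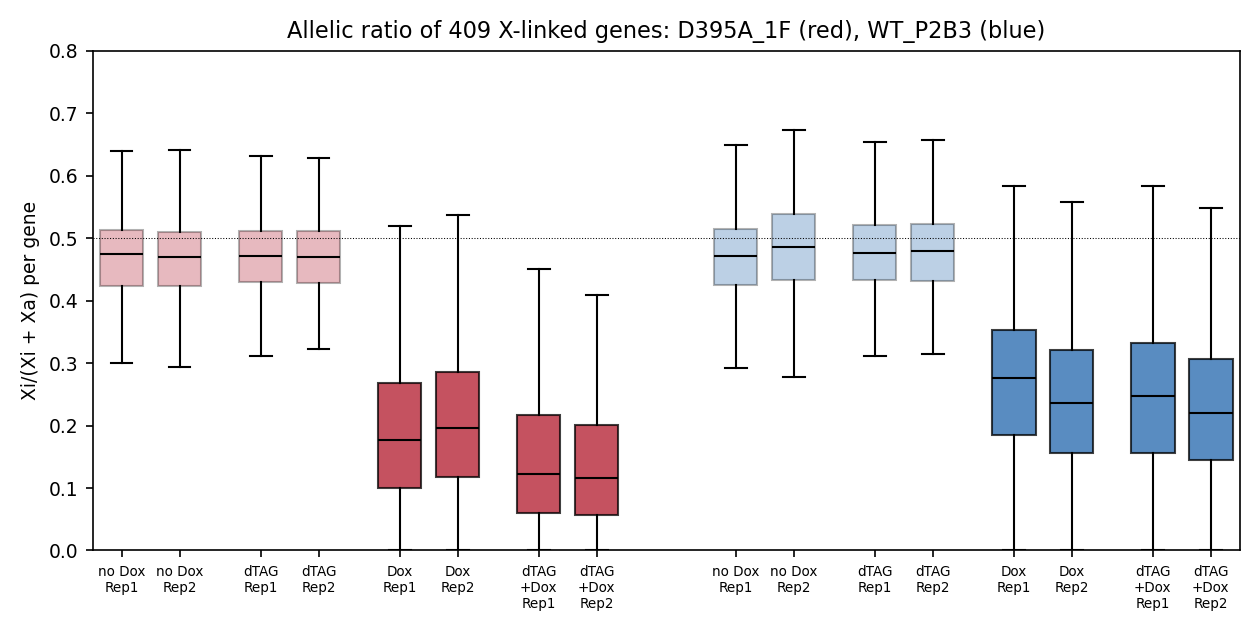
Allelic ratio Xi/(Xi + Xa) of 409 X-linked genes in the 16 libraries of D395A_1F (red) and WT_P2B3 (blue); boxes show the middle of the genes with the median, and the dotted line marks equal alleles. Medians lie at 0.470 to 0.486 without Dox, and with Dox they are lower, lowest at 0.123 and 0.115 in D395A_1F with dTAG.

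Gene by gene, 87 of the 409 ratios (21.3%) were called lower and 1 (0.244%) higher in D395A_1F. None passed in WT_P2B3 (0.0% higher and 0.0% lower, 38 at an unadjusted p under 0.05) and none for the difference (0.0% and 0.0%, 68 at an unadjusted p under 0.05) by limma. On the logit scale 206 were lower in D395A_1F and 41 for the difference, with 3 and 1 higher. The calls in D395A_1F need both experiments, since 0 calls were made without its Rep1 and 2 without its Rep2, and 0 in a fit of only the 8 libraries with Dox. Reads behind a ratio are not given in the tables, so genes with few variant reads cannot be told from the rest.

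Sytl5, a Rab27 effector of vesicle traffic, had the largest fall, from 0.458 and 0.345 with Dox to 0.175 and 0.082 with dTAG and Dox in D395A_1F, and in WT_P2B3 measured 0.286 and 0.206 with Dox and 0.288 and 0.170 with dTAG and Dox. Timm17b, a subunit of the mitochondrial import translocase, fell from 0.439 and 0.444 to 0.250 and 0.185, whereas WT_P2B3 measured 0.446 and 0.50 with Dox and 0.40 and 0.377 with dTAG and Dox. The treated ratios lay under both Dox ratios of D395A_1F for each gene, and for Timm17b they were the lowest of the 8. The fitted changes were -0.273 (adjusted p = 0.00304, limma) and -0.224 (adjusted p = 0.0114), and their differences from WT_P2B3 of -0.257 and -0.14 did not pass (adjusted p = 0.0561 and 0.249). The other 8 of the 10 largest called falls were Gpm6b, Nap1l2, Akap17b, Nr0b1, Nxt2, Dynlt3, Bhlhb9 and BC065397, with changes of -0.197 to -0.126. Sytl5, Timm17b, Nxt2 and Dynlt3 were weakly expressed, at 6.84, 5.21, 4.40 and 9.54 CPM on average over the 16 libraries. The others of the 10 averaged 10.3 to 154 CPM. Nxt2 alone of the 10 moved the other way in WT_P2B3 (0.126, adjusted p = 0.490, limma). Some of the 10 ratios were also lower with dTAG outside this contrast. Sytl5 averaged 0.653 and 0.446 in D395A_1F without Dox, untreated and with dTAG, and subtracting that change left -0.0668. Nr0b1 changed by -0.204 in WT_P2B3 (adjusted p = 0.0501), and in D395A_1F its change was -0.0220 after the change without Dox was subtracted. No ratio in D395A_1F passed with that change subtracted.

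Pnma5 was the single called rise, from 0.30 and 0.310 to 0.450 and 0.477 in D395A_1F (change 0.158, adjusted p = 0.00838). Among the housekeeping and disease genes 11 of 36 were called lower, with a median change of -0.0512, against 21.3% and -0.0554 over the 409 genes. Huwe1 went from 0.240 and 0.265 to 0.170 and 0.171 in D395A_1F and in WT_P2B3 measured 0.352 and 0.319 with Dox and 0.326 and 0.305 with dTAG and Dox. Smc1a and Thoc2, an mRNA export factor, changed by -0.0931 and -0.104. Of 9 genes known to escape X inactivation 3 were called lower, with a median change of -0.0487 over the 9, the RNA helicase Ddx3x (-0.0699), the translation factor subunit Eif2s3x (-0.0721) and Pbdc1 (-0.055), and the histone demethylase Kdm6a was not (-0.00281, adjusted p = 0.856).

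The RNA assigned to Xi fell by more than that assigned to Xa. Multiplying each gene's CPM by its ratio and summing over the 409 genes gave 8279 and 9623 CPM from Xi with Dox and 6080 and 6400 CPM with dTAG and Dox in D395A_1F, falls of 26.6% and 33.5%. The sum from Xa fell by 3.83% and 2.71% in these pairs. In WT_P2B3 Xi gave 12610 and 13060 CPM with Dox and 11498 and 11529 CPM with dTAG and Dox, 8.82% and 11.7% less, and Xa changed by -0.446% and -7.87%. Relative to the untreated libraries of the same Rep, Xi output stood at 30.6 and 35.5% with Dox and at 22.5 and 23.6% with dTAG and Dox in D395A_1F, and at 48.1 and 44.7% and at 43.8 and 39.5% in WT_P2B3.

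The median change in D395A_1F was below 0 at every distance from Xist. In bins of distance from Xist, from 0 to 5 Mb to over 60 Mb, the median change was -0.0602, -0.0488, -0.0542, -0.0498 and -0.0599, and 18.4 to 25.8% of genes were called lower. Genes with ratios under 0.1 over the Dox libraries had a median change of -0.0251, against -0.0661 for those over 0.3. Median changes were alike across levels, -0.0529 to -0.0579, but the share called lower rose from 5.43% of genes under 10 CPM to 47.2% of genes over 200 CPM. Over the 386 genes shared with the table of the degron clones, dTAG changed the median gene by -0.0553 in D395A_1F and -0.0161 in WT_P2B3, and by -0.0842 in the parental H5 clone, with -0.0450 to -0.0690 in the clones G4, H1 and C3. The H5 clone started from a median of 0.273 with Dox, nearer to WT_P2B3 (0.257) than to D395A_1F (0.192).

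**Figure D5:**
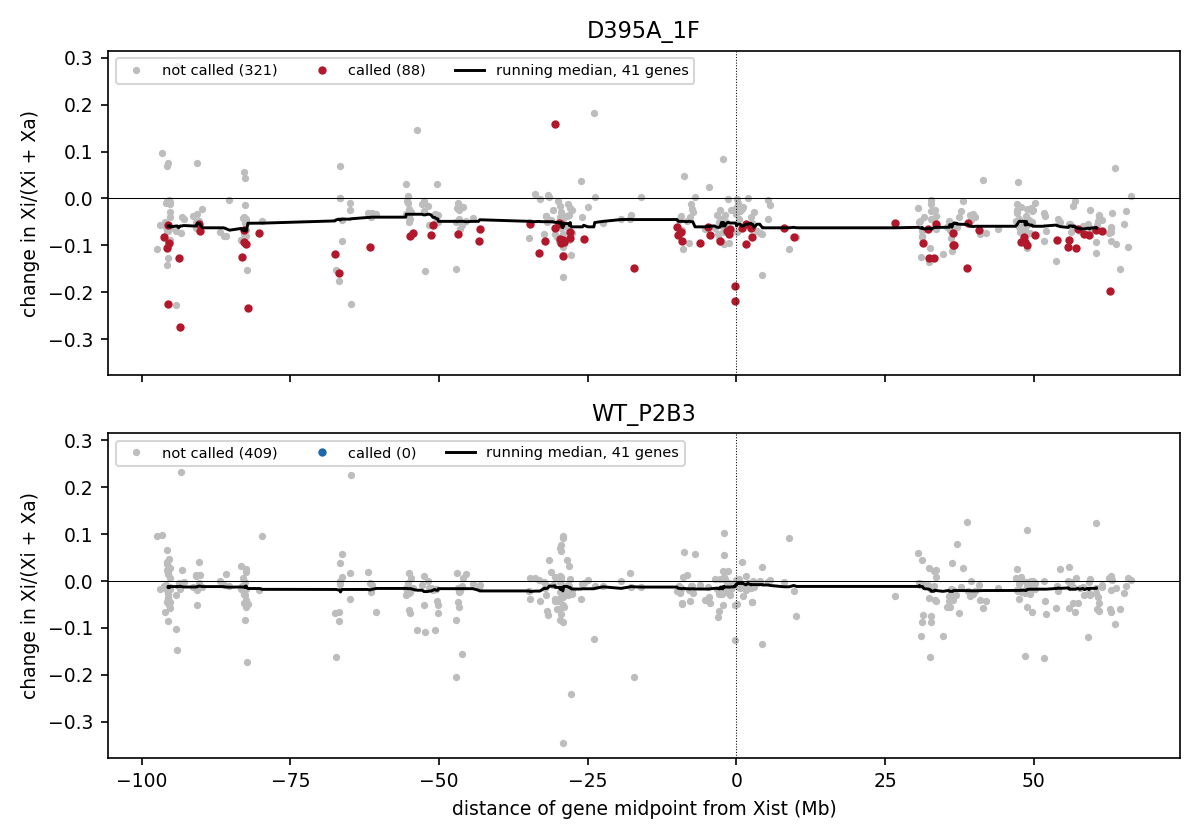
Change in allelic ratio with dTAG against distance from Xist (Mb) for 409 genes in D395A_1F and WT_P2B3; coloured points were called, and the black line is a running median over 41 genes. The D395A_1F line runs below 0 at all distances and the WT_P2B3 line lies nearer to 0.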

How the data were processed

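Chromatin RNA libraries were prepared per the labels from mouse ES cells, and rRNA reads were first taken out with bowtie2, after which the authors aligned with STAR to mm10 masked at strain variants, and counted strand-specific reads over whole gene spans, introns included, with featureCounts. The authors deposited CPM per gene, scaled with edgeR. The deposited allelic ratio is a fraction, Xi/(Xi + Xa), of variant reads split with SNPsplit, for genes with at least 10 such reads. Its depth is unknown here. Another 8 columns were not assigned to a sample and were not used.

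In every library 100% of the low deposited CPM values were whole multiples of 1 read (within 0.1 read). Higher values were rounded to whole reads without that check. The reads so recovered gave depths of 8.58 to 31.5 M. Without molecular identifiers depth covers counting error only. Replicates of a group differed by more than counting noise and none were identical. Of 22556 symbols 93.8% matched RefSeq directly.

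log2(CPM + 1) of genes averaging 1 CPM or more, and ratios on their own scale, were fitted over the 16 XX transgene libraries with limma 3.58.1 (R 4.3.3). The fits held treatment within clone and Rep within clone as a block, and eBayes used a trend for expression and none for ratios. P values are two-sided, adjusted by Benjamini-Hochberg over all genes tested, and the fits left 6 residual degrees of freedom. Pairing follows the Rep of the labels and column names. Deviations of the Dox and the dTAG and Dox library of a Rep from their group means correlated across genes at 0.665 (D395A_1F) and 0.826 (WT_P2B3) for expression, and at 0.220 and 0.0366 for ratios. Alternatives were no replicate block, fewer libraries, median-ratio scaling, edgeR 4.0.16 (quasi-likelihood) on recovered reads, another pseudocount (0.1), no filter, a logit scale, a 5 CPM minimum for ratios, subtraction of the change without Dox, and each Rep left out. The code was tested on simulated data.

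Named genes were the 10 largest called autosomal rises and falls with the same direction in both pairs, at least 5 CPM on average and a symbol that is not a clone name, for D395A_1F and for the difference, the 10 largest called ratio falls and up to 5 rises, list members by their largest change, Xist and Mettl3. The members and lists were chosen with earlier results of these data known. A result for 1 gene is not reported here.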

Additional observations from a re-analysis of the deposited data

Results flagged for a closer look

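The response to dTAG with Dox differed between D395A_1F and WT_P2B3, by limma's test of the difference itself, for 1612 genes besides Xist (log2 difference 0.57). The differences that follow are log2 changes of D395A_1F minus those of WT_P2B3. The largest rises relative to WT_P2B3 were those of Car10 (3.18), Egr1 (1.86), Sh3rf2 (1.84), Scara5 (1.76), Megf11 (1.75), Adamts3 (1.72), Pdzrn4 (1.72), Ptchd4 (1.72), Dok6 (1.70) and Itga9 (1.68). The largest falls were those of Dnah8 (-1.82), Lgals3 (-1.70), Cnpy1 (-1.46), Gpa33 (-1.43), Ebf1 (-1.33), Spink3 (-1.32), Irak3 (-1.29), Tll1 (-1.25), Dync1i1 (-1.25) and Vim (-1.24). Itga9 owes its place to a single pair of WT_P2B3 libraries.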

How the results depend on the processing

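Without the replicate block, 426 genes were called for expression in D395A_1F and 2 for the difference, 2 ratios each in WT_P2B3 and for the difference, and Xist kept its changes (0.66 and 0.57) without passing. With no filter on low values 1057 genes passed for the difference and Xist (0.57) did not. Only libraries with Dox gave 1 call for expression in WT_P2B3 and 0 ratio calls in D395A_1F. The logit scale gave 209, 1 and 42 ratio calls in D395A_1F, WT_P2B3 and the difference, a 5 CPM minimum gave 1 for the difference, and subtracting the change without Dox gave 0 in D395A_1F and turned Nap1l2 to 0.117. Leaving out each Rep gave 1199 to 4194 expression calls in D395A_1F (1199 without its Rep2 and 1897 without its Rep1), 0 to 193 in WT_P2B3 (193 without its Rep1), and 384 to 1666 for the difference (384 without Rep2 and 858 without Rep1 of D395A_1F, 679 without Rep2 of WT_P2B3). Without WT_P2B3 Rep1 the 1666 differences split into 835 higher and 831 lower. Ratio calls then ranged from 0 to 73 in D395A_1F (0 without its Rep1 and 2 without its Rep2) and from 0 to 1 for the difference. The Xist change ranged from -0.064 (without Rep1) to 0.25 in WT_P2B3 and the Xist difference from 0.41 to 0.73, not passing without Rep2 of either clone. Mettl3 ranged from -0.00028 to 0.28 in D395A_1F and from -0.018 to 0.26 for the difference, never passing. A clone left with 1 pair is assumed to vary like the other. The causes were not tested. No other named value changed sign. Over all combinations of a named gene's result and an alternative, 541 lost the call and 1529 kept their side of the threshold.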

Other observations

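A group of 8 genes fell by more than 1.5 in log2 in Rep2 of WT_P2B3, and was chosen after these values were seen. Filip1l measured 4667 CPM with Dox and 122 CPM with dTAG and Dox in that pair, and 80.5 and 15.98 CPM in Rep1 of WT_P2B3. In D395A_1F it measured 9701 and 13709 CPM in Rep1 and 199 and 49.1 CPM in Rep2. Jarid2, a cofactor of Polycomb complex PRC2, was high in the same libraries, though highest in Rep2 of WT_P2B3 with Dox. It measured 10148 and 2835 CPM in Rep2 of WT_P2B3 and 2186 and 2105 CPM in its Rep1. In D395A_1F it measured 7531 and 9879 CPM in Rep1 and 2271 and 1899 CPM in Rep2. The others were Cntnap5b, Tmtc2, D130009I18Rik, Zc3h7a, Rassf8 and Itga9. Among the 8 libraries with Dox, their high levels lay in Rep1 of D395A_1F, with and without dTAG, and in Rep2 of WT_P2B3 with Dox alone. High levels were not confined to these, since Itga9 averaged 301 CPM in untreated WT_P2B3 with a wide spread (SD 243). In the pairs of WT_P2B3 without Dox, dTAG changed Itga9 by 0.04 and 0.06 in log2.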
